A study of Drosophila melanogaster with 4 samples.

Results

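Dh31, AstC, NPF, Tk, AstA and Mip are genes for peptides that neurons and the enteroendocrine cells of the gut both make, and their transcripts were examined in Drosophila melanogaster embryo cell culture. The members were all probe sets that the array's annotation assigns to 1 of these 6 gene symbols. There were 4 such probe sets of the 14010 on the array, 1 each for Dh31, AstC, NPF and Mip. Tk and AstA, which encode tachykinins and A-type allatostatins, were named by no probe set and were not analysed here. The genes were chosen by name with the intensities of these same 4 arrays, and the differences between their groups, already known, so their own values are given as a description and carry no test.

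Total RNA of 4 samples was hybridised to 1 array each, and each sample was the negative fraction of a fluorescence-activated sort, the cells left after labelled neurons had been taken out. Both Gad1-negative samples (a, b) came from sorts for Gad1-expressing neurons, marked by the red fluorescent protein dsRed1 (RFP) fused directly to a 2.1 kb promoter of glutamic acid decarboxylase 1, the enzyme that makes GABA; no culture age is given for them. Both Cha-negative samples (a, b) came from cultures of 3 to 5 days in which GFP was expressed in cholinergic neurons, the cells that use acetylcholine. No further genotype, strain or treatment is named for either group, and no label tells if the 2 samples of a group were grown apart, so the spread between them may be technical. Every difference is the mean log2 intensity of Gad1-negative less that of Cha-negative, and its standard error (SE) comes from a limma fit across all genes tested, with n = 2 samples per group.

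Peptide genes of this kind encode a longer precursor protein, which is cut by proprotein convertases, trimmed, often amidated at its end, and stored in dense core vesicles until release. In the fly the same precursor genes are used by small sets of brain neurons and by enteroendocrine cells scattered through the midgut epithelium, where they are known for regulating feeding, gut movement, fluid balance and metabolism. Each peptide acts through G protein-coupled receptors.

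The deposited values are intensities on a linear scale. The 4 arrays had median intensities of 213 and 181 in Gad1-negative a and b, against 248 and 219 in Cha-negative a and b. An intensity of 44.9, the 20th percentile of all values, was used as a floor. Values under it are printed as deposited but have no order among themselves. Over 9 hybridisation controls from bacteria and phage, the geometric mean was 4005 and 1550 in Gad1-negative a and b, against 4441 and 7164 in Cha-negative a and b. The GAPDH 3' to 5' ratio, a sign of RNA quality, was 23.9 and 38.04 in Gad1-negative, against at least 144 and 185 in Cha-negative. The eIF-4a ratio was 230 and 77.1 in Gad1-negative, against Cha-negative values of at least 321 and at least 935, but the actin ratios overlapped, at 82.1 and 106 in Gad1-negative against 59.4 and 124 in Cha-negative. Pan-neuronal genes were present: of 7 measured, elav, Appl, futsch and fne passed the intensity filter, while nSyb, brp and para did not.

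Dh31, AstC and NPF shared one feature: all 3 read far higher in Cha-negative b than in any other sample. In that sample Dh31 stood 7.47-fold, AstC 5.88-fold and NPF 9.11-fold above the highest of the other 3 samples. Cha-negative a lay much closer to the Gad1-negative samples than to Cha-negative b. Mip lay under the floor in all 4 samples.

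Dh31 encodes diuretic hormone 31, a calcitonin-like peptide that drives fluid secretion and gut contraction. Its intensity was 2007 and 2397 in Gad1-negative a and b, against 3539 and 26438 in Cha-negative a and b. The groups did not overlap, but Cha-negative b was 7.47-fold above Cha-negative a, whereas Gad1-negative b was 1.19-fold above Gad1-negative a. The mean log2 intensity was 11.10 ± 0.18 in Gad1-negative and 13.24 ± 2.05 in Cha-negative (SD, n = 2 each), a difference of -2.14 ± 0.92 (SE). Without Cha-negative b the difference was -0.69, and without Cha-negative a it was -3.59. Counted from the brightest of the 14010 probe sets on its array, Dh31 ranked 1021 and 855 in Gad1-negative a and b, against 449 and 46 in Cha-negative a and b, so its place within the array moved the same way as its intensity.

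AstC encodes allatostatin C, a somatostatin-like peptide. It read 1207 and 1524 in Gad1-negative a and b, against 1883 and 11061 in Cha-negative a and b. Again the groups did not overlap, and again 1 sample held most of the gap. Cha-negative a was 1.24-fold above the higher Gad1-negative sample, and Cha-negative b was 5.88-fold above Cha-negative a. The mean log2 intensity was 10.41 ± 0.24 in Gad1-negative and 12.16 ± 1.81 in Cha-negative (SD, n = 2 each), a difference of -1.75 ± 0.84 (SE). That difference was -0.47 without Cha-negative b and -3.03 without Cha-negative a. Its rank was 1780 and 1409 in Gad1-negative a and b, against 980 and 133 in Cha-negative a and b.

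NPF encodes neuropeptide F, the fly relative of vertebrate neuropeptide Y. Its intensity was 325 and 1329 in Gad1-negative a and b, against 964 and 12106 in Cha-negative a and b. Here the groups overlapped, since Gad1-negative b exceeded Cha-negative a. NPF also varied most between samples of a group: b was 4.09-fold above a in Gad1-negative and 12.6-fold above a in Cha-negative. The mean log2 intensity was 9.36 ± 1.44 in Gad1-negative and 11.74 ± 2.58 in Cha-negative (SD, n = 2 each), a difference of -2.38 ± 1.18 (SE). The difference was -0.55 without Cha-negative b, -4.20 without Cha-negative a, -3.39 without Gad1-negative b and -1.36 with Gad1-negative a left out. Its rank was 5510 and 1608 in Gad1-negative a and b, against 2172 and 117 in Cha-negative a and b.

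Mip encodes the myoinhibitory peptides, also called B-type allatostatins, which slow gut muscle. It read 17.9 and 13.9 in Gad1-negative a and b, against 15.8 and 35.7 in Cha-negative a and b. All 4 values lie under the floor, so they have no order and no fold is given. The plot of intensity by sample shows the 4 probe sets together.

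**Figure D1:**
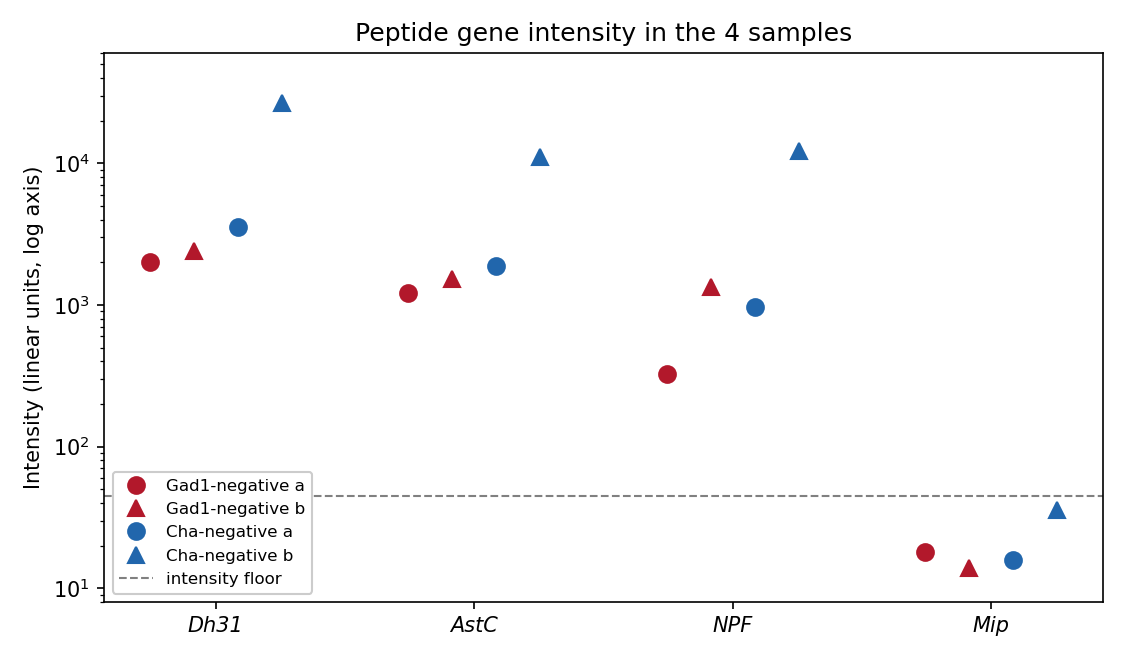
Intensity (linear units on a log axis) of the probe sets of Dh31, AstC, NPF and Mip, 1 point per sample; red marks Gad1-negative and blue Cha-negative, circles sample a and triangles sample b, and the dashed line is the floor of 44.9. For Dh31, AstC and NPF the Cha-negative b triangle lies at 26438, 11061 and 12106, at least 5.88-fold above every other sample, while Mip stays under the floor in all 4.

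Between the groups, no gene passed limma at an adjusted p under 0.05 among the 6994 tested, and the share called was 0%. At an unadjusted p under 0.05 limma gave 345 genes, 4.93%. Of the 4 members with a probe set, 3 passed the intensity filter, and these 3 all had a negative difference, as did 52.3% of genes tested. Non-overlapping groups with Gad1-negative lower were found for Dh31 and AstC, against 20.1% of genes tested. Since the members were chosen with this contrast known, nothing is read from these counts. In such bulk samples, fewer cells of a type and less RNA per cell cannot be told apart.

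**Figure D2:**
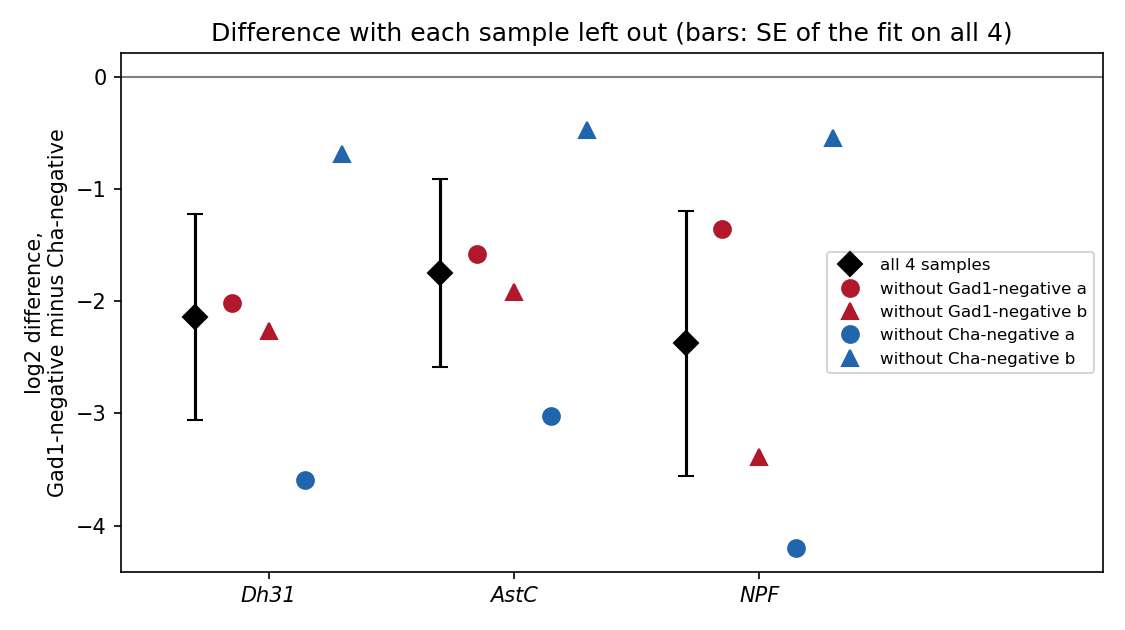
Difference between the groups (log2, Gad1-negative minus Cha-negative) for Dh31, AstC and NPF with all 4 samples (black diamonds, bars the SE of the fit) and with each sample left out in turn (red without a Gad1-negative sample, blue without a Cha-negative sample, circles for a and triangles for b). All points lie below 0, and those without Cha-negative b lie nearest to it, at -0.69, -0.47 and -0.55.

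The height of Cha-negative b was next set against the whole array. For each gene tested, its level in Cha-negative b was divided by the highest of the other 3 samples. NPF had the highest such ratio of all 6994 genes, Dh31 ranked 3 and AstC ranked 6. Since the members were chosen with these values known, nothing is read from their ranks or from their place in the count below. At least 4-fold above the other samples in Cha-negative b stood 15 genes, 0.214%, with Dh31, AstC and NPF among them; the same count was 27 genes for Gad1-negative a, 40 for Gad1-negative b and 50 for Cha-negative a. Cha-negative b was the highest sample for 22.1% of genes tested. That share was 28.7% for Cha-negative a, 24.8% for Gad1-negative a and 24.4% for Gad1-negative b. The authors had scaled the arrays to equal trimmed means, so these shares cannot show whether an array was bright in general. The other genes among the 10 with the highest ratios were TwdlN, CG5506, CG14421, ImpE2, Sgs7, CG15127 and CG4734, named after their values were seen. TwdlN, of the Tweedle family of cuticle proteins, read 44.4 and 164 in Gad1-negative a and b, against 59.5 and 1354 in Cha-negative a and b. Sgs7, a salivary glue protein, read 125 and 45.4 in Gad1-negative a and b, against 289 and 1618 in Cha-negative a and b. The hybridisation controls were also highest in Cha-negative b, 1.61-fold above Cha-negative a, where the peptide genes were 5.88-fold to 12.6-fold above it. The actin 3' to 5' ratio was highest in Cha-negative b too, at 124. Its GAPDH ratio of 185 and eIF-4a ratio of at least 935 exceeded both Gad1-negative samples. Those of Cha-negative a are known only as at least 144 and at least 321. The part of the controls and of these ratios in the result was not tested.

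**Figure D3:**
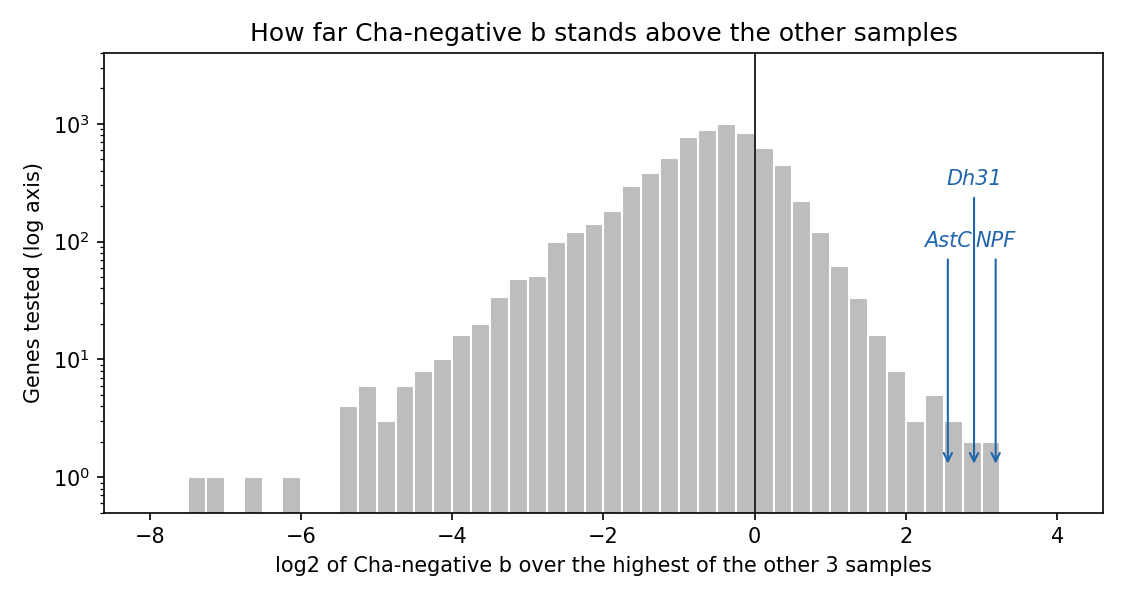
Histogram of the log2 ratio of Cha-negative b to the highest of the other 3 samples over the 6994 genes tested (counts on a log axis, bins of 0.25), with arrows at Dh31, AstC and NPF. Most genes lie below 0, and the arrows stand in the far right tail at 2.90, 2.55 and 3.19.

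Dh31 and AstC followed each other closely over the 4 samples. Likeness was measured as the root mean square distance between the genes' log2 values after each gene's mean was taken off, over the 4 samples. AstC was the gene nearest to Dh31 of all genes tested, at a distance of 0.23, and no other gene came within 0.25 of Dh31. The members were chosen with these values known, so nothing is read from how near they lie to each other. For AstC the nearest genes were CG4465 at 0.17, Dh31 at 0.23 and yip7 at 0.29. After AstC, those nearest to Dh31 were CG14421 at 0.33 and CG4465 at 0.39. The nearest to NPF were CG15127 at 0.43, TwdlN at 0.45 and CG43896 at 0.67, with no gene within 0.25. NPF lay 0.69 from Dh31 and 0.78 from AstC. NPF ranked 29 among the genes nearest to Dh31 and 138 among those nearest to AstC, though it too was highest in Cha-negative b. With 4 samples, of which 1 stands apart, these distances rest in part on the height of Cha-negative b and in part on the other samples.

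The measured genes next to Dh31, AstC and NPF on the chromosome were not highest in Cha-negative b. Neighbours were taken from the order of protein-coding genes in the RefSeq annotation of Release 6. Bace, which follows Dh31, read 371 and 161 in Gad1-negative a and b, against 3284 and 1785 in Cha-negative a and b. Both Cha-negative samples were high, with a the higher. Its difference was -3.31 ± 0.64 (SE), with a limma adjusted p = 0.783. AstCC, which follows AstC and encodes a related C-type allatostatin, read 49.8 and 28.3 in Gad1-negative a and b, against 122 and 106 in Cha-negative a and b, below the intensity filter. CG10345, before NPF, read 94.8 and 642 in Gad1-negative a and b, against 427 and 355 in Cha-negative a and b.

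None of the receptors passed the test after adjustment. The one with the largest difference among the 5 tested, Dh31-R, varied in size with the sample left out. Of 9 receptor genes 6 had a probe set and 5 were tested. At an adjusted p under 0.05 limma called 0 of the 5, where the share over all genes was 0%. An unadjusted p under 0.05 was found for 1, against 4.93% of all genes tested. Of the 5 tested, 4 had a negative and 1 a positive difference, with a median of -0.63 (-0.24 without Cha-negative a) against -0.044 over all genes tested. Dh31-R, the receptor of Dh31, read 379 and 115 in Gad1-negative a and b, against 1460 and 567 in Cha-negative a and b. The groups did not overlap, and the difference was -2.13 ± 0.77 (SE; limma unadjusted p = 0.0261, adjusted p = 0.925). Unlike its ligand, the receptor was highest in Cha-negative a, and Cha-negative b was 0.388 of the highest other sample. A further Dh31-R probe set read under the floor in all 4 samples, so its values were all set to the floor. Averaging it in could only shrink the difference, to -1.06, and tells nothing on whether the probe sets differ. Without Gad1-negative b it was -1.26 and without Cha-negative a -1.44, against -2.99 without Gad1-negative a and -2.81 without Cha-negative b.

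NPFR, the receptor of NPF, read 468 and 283 in Gad1-negative a and b, against 524 and 832 in Cha-negative a and b, a difference of -0.86 ± 0.58 (SE; -0.50 without Gad1-negative b and -0.53 without Cha-negative b). It was the only tested receptor of these 5 that was highest in Cha-negative b, by 1.59-fold over the next sample. Over the 6 measured receptors there were 2. The shares over all genes were 22.1% of those tested and 23.2% of those with a probe set. AstC-R1, a receptor of AstC, read 130 and 22.6 in Gad1-negative a and b, against 60.4 and 242 in Cha-negative a and b. It lay below the intensity filter. TkR99D and TkR86C, the receptors of tachykinin family peptides, differed by -0.31 ± 0.58 and 0.52 ± 0.97 (SE). TkR86C was high in 1 sample, at 749 in Gad1-negative a, against 104 in Gad1-negative b and 212 and 178 in Cha-negative a and b; without Gad1-negative a its difference was -0.91. SPR, the sex peptide receptor and also a receptor of the myoinhibitory peptides, read 107 and 160 in Gad1-negative a and b, against 505 and 81.4 in Cha-negative a and b (-0.63 ± 1.01, SE), and without Cha-negative a its difference was 0.68. A further SPR probe set lay under the floor in all 4 samples. AstC-R2, AstA-R1 and AstA-R2 were named by no probe set.

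Genes of the machinery that makes active peptides were at most 1.25-fold above the other samples in Cha-negative b among those tested, though that sample was the highest for 3 of 7 tested and 4 of 8 measured, against 22.1% of all genes tested and 23.2% of all with a probe set. Of 9 processing genes 8 had a probe set and 7 were tested; 5 had a negative and 2 a positive difference, with a median of -0.55 that was -0.11 without Gad1-negative b and -1.14 without Gad1-negative a. None passed after adjustment and 1 had an unadjusted p under 0.05, against 4.93% of all genes tested. That gene was dimm, a transcription factor of peptidergic cells, at 176 and 148 in Gad1-negative a and b, against 490 and 449 in Cha-negative a and b. Its groups did not overlap and its samples within a group were close (-1.54 ± 0.60, SE; limma unadjusted p = 0.0343, adjusted p = 0.925). The convertase gene amon read 371 and 155 in Gad1-negative a and b, against 330 and 426 in Cha-negative a and b (-0.64 ± 0.67, SE). 7B2, a helper of that convertase, differed by -0.66 ± 0.62 (SE). Without Gad1-negative b, amon differed by -0.013 and 7B2 by -0.0092, and without Gad1-negative a by -1.28 and -1.31. Its further probe set, of lower mean, read 429 and 981 in Gad1-negative a and b, against 687 and 934 in Cha-negative a and b. Pal2, an enzyme of the amidation pathway, differed by 0.47 ± 0.59 (SE), and without Gad1-negative b by -0.11 and without Gad1-negative a by 1.05.

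Other peptides of brain and gut showed no such peak in Cha-negative b. All 8 of that list had a probe set and 6 were tested, 3 with a positive and 3 with a negative difference (median 0.070). The median turned to -0.42 with no intensity filter, -0.30 without Gad1-negative a, -0.41 without Cha-negative b and -0.24 with Cha-negative a left out, so the list had no settled direction. None had an unadjusted p under 0.05 by limma, and none passed after adjustment. CCHa1, a CCHamide peptide, read 320 and 329 in Gad1-negative a and b, against 519 and 431 in Cha-negative a and b. CCHa2, its relative, read 276 and 291 in Gad1-negative a and b, against 461 and 485 in Cha-negative a and b. The samples of both were close within each group and did not overlap between groups, with differences of -0.54 ± 0.55 and -0.74 ± 0.55 (SE). CCAP, crustacean cardioactive peptide, differed by -1.01 ± 0.96 and ITP, ion transport peptide, by 0.71 ± 0.61 (SE). CCAP differed by -0.010 without Gad1-negative b, -2.01 without Gad1-negative a, -0.32 without Cha-negative b and -1.70 with Cha-negative a left out. ITP differed by 0.19 without Cha-negative b and 1.24 without Cha-negative a. Cha-negative b was the highest sample for 2 of the 6 tested genes, by at most 1.62-fold, against 22.1% of genes tested. Over the 8 measured it was the highest for 3, against 23.2% of all genes with a probe set. The map of log2 deviations by gene and sample sets these genes beside Dh31, AstC and NPF.

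**Figure D4:**
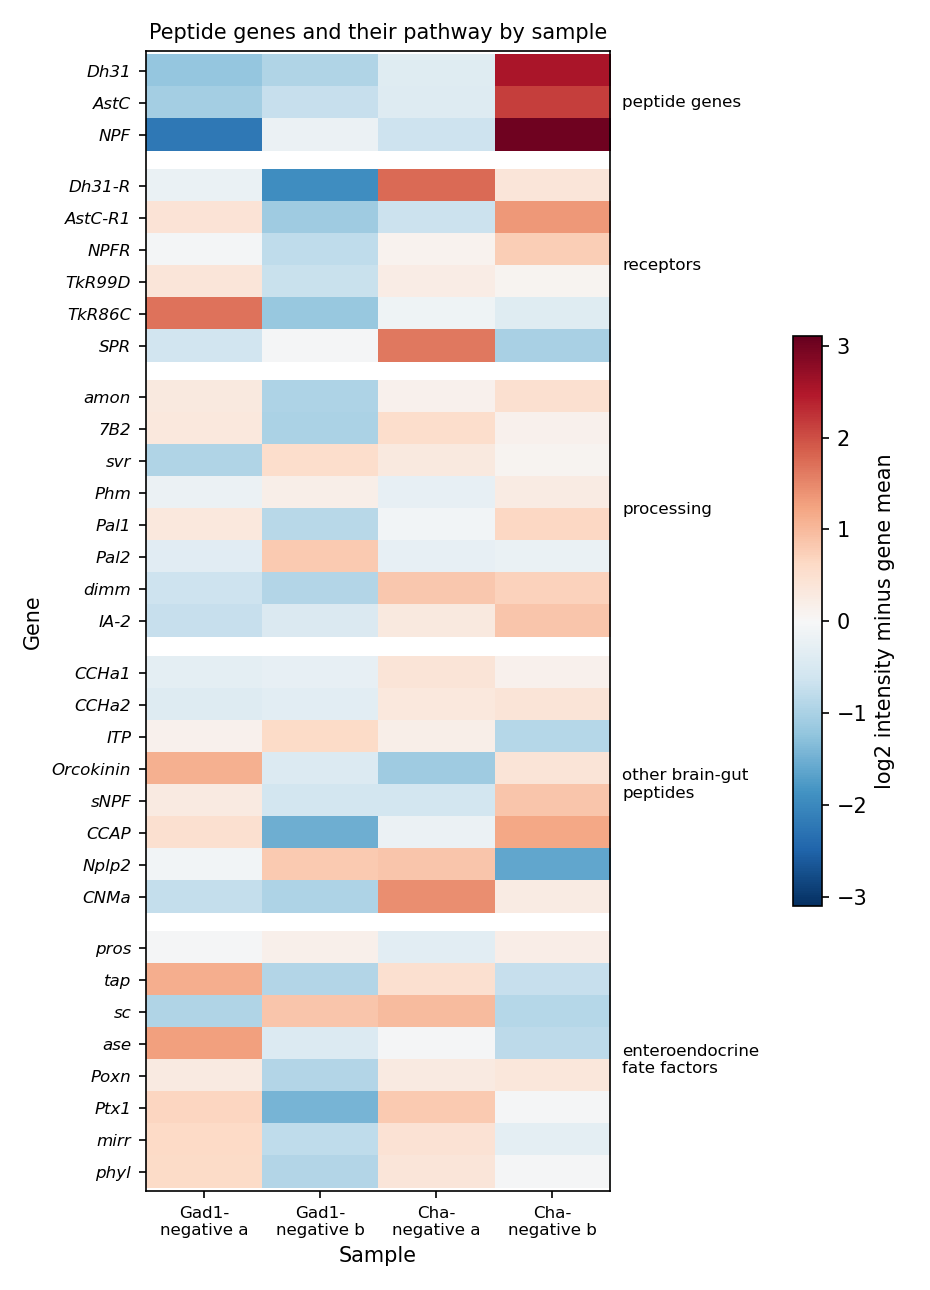
Log2 intensity minus the gene's mean over the 4 samples (colour, from -3.1 to 3.1) for the peptide genes, their receptors, processing genes, other brain-gut peptides and enteroendocrine fate factors, with values under the floor set to it. Dh31, AstC and NPF are dark red in Cha-negative b, where the tested receptors, processing genes and other peptides reach at most 1.62-fold above the highest other sample.

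The 8 fate factors of enteroendocrine cells all had a probe set and 6 were tested, 3 with a positive and 3 with a negative difference (median -0.025, from -0.83 without Gad1-negative a to 0.48 without Gad1-negative b), none with an unadjusted p under 0.05 by limma and none past adjustment. Cha-negative b was the highest sample for 1 of these 6, pros, by 1.05-fold, against 22.1% of genes tested. Over the 8 measured it was the highest for 2, against 23.2% of all genes with a probe set. The transcription factor pros, which marks enteroendocrine cells and is also active in neural lineages, read 746 and 847 in Gad1-negative a and b, against 608 and 886 in Cha-negative a and b. The bHLH factor tap read 506 and 123 in Gad1-negative a and b, against 326 and 140 in Cha-negative a and b (0.23 ± 0.88, SE), so samples of a group differed more than the groups did; without Gad1-negative a its difference was -0.79 and without Cha-negative b -0.39. The proneural factor ase differed by 0.85 ± 0.82 (SE), but by 0.0033 without Gad1-negative a, 1.70 without Gad1-negative b and 0.46 without Cha-negative b. Ptx1, a homeodomain factor, differed by -0.78 ± 0.79 and phyl, an adaptor protein of sense organ and enteroendocrine fate, by -0.33 ± 0.66 (SE); without Gad1-negative b they differed by 0.26 and 0.42.

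Markers of digestive cells were in part high in Cha-negative b, as the peptide genes were. Of 14 gut genes 10 had a probe set and 5 were tested. Cha-negative b was the highest sample for 2 of the 5 tested, against 22.1% of genes tested, and for 5 of the 10 measured, against 23.2% of all genes with a probe set. The summed intensity of the 10 was 2693 and 2028 in Gad1-negative a and b, against 3484 and 5240 in Cha-negative a and b. Without Jon65Aiv, left out after the values were seen, the sum was 2536 and 1709 in Gad1-negative a and b, against 3071 and 3439 in Cha-negative a and b, so most of the gap between Cha-negative b and Cha-negative a was that gene. The midgut protease Jon65Aiv read 157 and 319 in Gad1-negative a and b, against 413 and 1801 in Cha-negative a and b (-1.95 ± 0.80, SE; limma unadjusted p = 0.0427, adjusted p = 0.925), and Cha-negative b was 4.36-fold above the next sample; without Cha-negative b its difference was -0.89 and without Cha-negative a -3.01. The maltase gene Mal-A1 read 345 and 188 in Gad1-negative a and b, against 418 and 836 in Cha-negative a and b (-1.22 ± 0.64, SE; -0.71 without Cha-negative b and -0.78 without Gad1-negative b). Below the intensity filter, GATAe, an endodermal GATA factor, read 25.6 and 59.9 in Gad1-negative a and b, against 83.8 and 256 in Cha-negative a and b. Jon99Ci, a further protease gene below the filter, read 26.2 and 45.5 in Gad1-negative a and b, against 38.9 and 163 in Cha-negative a and b. Other gut genes did not share the peak: Jon65Aiii differed by -0.92 ± 0.57 (SE; -0.51 without Gad1-negative b) and the mucin gene Mur18B by -1.21 ± 0.68 (SE), and both were highest in Cha-negative a. Of the 10, alphaTry and nub lay under the floor in 3 of 4 samples, and alphaTry, counted as highest in Cha-negative b, read 45.5 there, just over the floor. The 5 genes tested had a median difference of -1.21 (-0.78 without Gad1-negative b), with 4 negative, 1 positive and none past adjustment, and the part of digestive cells in the peptide values was not tested.

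Peptide genes used mainly by neurons and neurosecretory cells did not follow Dh31, AstC and NPF as a group. Of 15, 12 had a probe set and 9 were tested, 4 with a positive and 5 with a negative difference (median -0.45, which was 0.37 without Gad1-negative b and -1.05 without Gad1-negative a). None passed after adjustment and 2 had an unadjusted p under 0.05, against 4.93% of all genes tested. Crz, corazonin, read 86.5 and 640 in Gad1-negative a and b, against 852 and 2054 in Cha-negative a and b (-2.49 ± 0.96, SE; limma unadjusted p = 0.0325, adjusted p = 0.925). Without Gad1-negative a the difference was -1.05, and without Gad1-negative b -3.93. Crz had the highest ratio of Cha-negative b to the other samples among the 9, 2.41. Ilp2, an insulin-like peptide, went the other way, at 748 and 393 in Gad1-negative a and b, against 104 and 189 in Cha-negative a and b (1.95 ± 0.68, SE; limma unadjusted p = 0.0214, adjusted p = 0.925). Capa differed by 1.58 ± 0.75 and Eh, eclosion hormone, by -0.92 ± 0.62 (SE); Eh differed by -0.39 without Gad1-negative b and by -1.46 without Gad1-negative a. Cha-negative b was the highest sample for 3 of the 9, against 22.1% of genes tested. Over the 12 measured it was the highest for 4, against 23.2% of all genes with a probe set.

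Pan-neuronal genes had no peak in Cha-negative b either, which was the highest sample for 0 of the 4 tested and 1 of the 7 measured. The shares over all genes were 22.1% of those tested and 23.2% of those with a probe set. Their summed intensity over 7 measured genes was 1502 and 3190 in Gad1-negative a and b, against 1940 and 2509 in Cha-negative a and b, so the groups overlapped. By limma 0 of the 4 had an unadjusted p under 0.05 and 0 passed after adjustment. The RNA-binding protein gene elav read 67.2 and 909 in Gad1-negative a and b, against 165 and 335 in Cha-negative a and b (0.071 ± 1.17, SE). Without Gad1-negative b its difference was -1.81 and without Cha-negative a -0.44. The cytoskeletal protein gene futsch differed by -0.67 ± 1.01 (SE), and by 0.84 without Gad1-negative a. Appl read 422 and 344 in Gad1-negative a and b, against 842 and 701 in Cha-negative a and b (-1.01 ± 0.53, SE). Its groups did not overlap, and its difference stayed negative with each sample left out. The difference of fne, 0.43 ± 0.54 (SE), stayed positive with each sample left out. Summed glial markers read 4236 and 2833 in Gad1-negative a and b, against 2129 and 4250 in Cha-negative a and b. Most of each sum was loco, at 2549 and 1975 in Gad1-negative a and b, against 1213 and 2998 in Cha-negative a and b. Summed muscle markers read 4833 and 8878 in Gad1-negative a and b, against 2621 and 1534 in Cha-negative a and b. Here Mlc2 made up most, at 4098 and 7432 in Gad1-negative a and b, against 2044 and 1116 in Cha-negative a and b. Summed haemocyte markers read 3797 and 5952 in Gad1-negative a and b, against 5198 and 1764 in Cha-negative a and b. Both the muscle and the haemocyte sum were lowest in Cha-negative b, but not every gene in them was. The muscle gene up was lowest in Gad1-negative a, at 146, but its further probe set, of lower mean, was not. That probe set, left out of the sum, read 54 in Gad1-negative a and under the floor in Gad1-negative b. In Cha-negative a and b it read 2244 and 128. The haemocyte genes Hml and NimC1 were lowest in Gad1-negative b, at 142 and 96.9, while Pxn was highest in Cha-negative b, at 464.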

How the data were processed

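Per the labels, the samples are total RNA of 4 negative sort fractions. The deposited intensity values are linear, with 1 value per probe set; their 2% trimmed means are equal at 500.1, so the authors had scaled the arrays, with software not given in the sources used here. Of 14010 probe sets, 12443 name 1 gene, 327 several, 44 are controls and 1196 others name none. Symbols were updated through Entrez identifiers. Per gene, the probe set of highest mean was used. Values under the 20th percentile (44.9) were set to it, and genes with a mean log2 of at least 7.05, the 40th percentile over probe sets, were tested: 6994 of 10844.

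The comparison used limma 3.58.1 (R 4.3.3), with lmFit and trended eBayes, two-sided, and Benjamini-Hochberg adjustment over all genes tested. The fit left 2 residual degrees of freedom, to which eBayes adds by sharing variance across genes. For Dh31, AstC and NPF the SE is therefore smaller than the SDs of their own samples alone would give. Simulated data were used to check the code. With 2 samples a group, the smallest two-sided p of an exact permutation test is 0.333. The members and lists were chosen with earlier results of these data known. Named were all members and receptors, up to 4 genes of each other list with the smallest unadjusted p, and the 3 genes most like Dh31, AstC and NPF; other genes were named after their values were seen. Alternatives covered normalization, floor, filter, probe set choice, variance model, the replicate letter and each sample. Python 3.11.15 with pandas 2.3.3 was used for tables. The number of arrays limits the precision.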

Additional observations from a re-analysis of the deposited data

How the results depend on the processing

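Limma called 0 genes at an adjusted p under 0.05 under all 15 alternatives. The count at an unadjusted p under 0.05, 345 of 6994, became 718 of 10844 with no filter and 213 of 4750 with the filter at the 60th percentile, and the cause was not tested; with 1 sample left out it lay between 257, when Cha-negative a was dropped, and 521, when Gad1-negative a was. With the replicate letter as a replicate block it was 602. The labels do not say what the letter marks; over genes, the a minus b differences of the 2 groups correlated at 0.251, and 2 pairs are too few to show pairing. Dh31, AstC and NPF kept a negative difference under all 15, from -2.14 to -1.90, -1.80 to -1.51 and -2.38 to -2.13 without leaving out samples, and from -3.59 to -0.69, -3.03 to -0.47 and -4.20 to -0.55 with 1 sample left out. Median centring moved the median over all genes to 0.204 from -0.044. List medians moved beyond the spread of their samples in 16 cases. Of genes named from the lists, 9 changed sign when 1 sample was left out, and the cause was not tested: TkR99D ran from -0.85 to 0.23, TkR86C from -0.91 to 1.94, SPR from -1.95 to 0.68, Pal2 from -0.11 to 1.05, Ptx1 from -1.82 to 0.26, phyl from -1.08 to 0.42, tap from -0.79 to 1.25, futsch from -2.18 to 0.84 and elav from -1.81 to 1.95. With 1 sample left out, the lone sample of its group is assumed to vary like the other group. The arrays allow no depth, and values under the floor have no order.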
